A study of Caenorhabditis elegans with 6 samples.

Results

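The col- genes make up the largest group of collagen genes in Caenorhabditis elegans by name, and most of them are thought to encode collagens of the cuticle. They were taken here as every gene of the expression table whose name is col- followed by a number, which gave 141 of the 16391 genes listed. The rule reads only the name of a gene, which is no proof of a cuticle role. For example, col-99 is known as a transmembrane collagen.

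Expression was measured by RNA-seq of whole N2 worms, the standard wild type, at L4, the last larval stage, in 3 libraries of 25°C-cultivated worms and 3 of 15°C-cultivated worms. All worms were fed OP50, an Escherichia coli strain, and carried no transgene or mutation. By the methods of the study, parents were moved to each temperature and their progeny hatched and grew there, with eggs laid earlier at 15°C to bring the groups to a similar stage, whereas the sample records describe worms grown from synchronized L1 larvae. Nothing in the records says that the libraries came from separate cultures, so p-values measure only the spread between these libraries.

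The worm cuticle is a coat of crosslinked collagens that the epidermis secretes anew before each molt. Its collagens are short proteins with repeated Gly-X-Y triplets that wind into triple helices, and many of their genes are transcribed in waves within each larval stage, some in every stage and others in a single stage. At L4 the epidermis prepares the adult cuticle, whose make-up differs from that of the larval cuticles. In whole worms, fewer cells of a type and less RNA per cell cannot be told apart.

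Values are FPKM, the fragments of a gene scaled by the length of its transcript and by all mapped fragments. Sequencing depth is unknown. The FPKM of a library ranged in sum from 2663992 to 2776526 at 25°C and from 2865856 to 3313082 at 15°C, with 15007 to 15255 genes above 0 per library. Those genes whose 6 libraries averaged 1 FPKM or more were compared by limma on the log2(FPKM + 0.5) scale, which understates the change of weakly expressed genes. A gene was called higher or lower at 25°C where its log2 fold change, 25°C over 15°C, was beyond 1 in that direction and its adjusted p was under 0.01. The p-values of limma were adjusted by Benjamini-Hochberg for all 12996 genes so tested. An exact permutation test of 3 libraries against 3 cannot give less than 0.10.

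Collagens of the col- family moved in both directions between the temperatures, and more often upward. Of the 141 genes, 107 passed the filter on low values and 34 did not. Of the tested genes, 53 were called higher at 25°C, 13 were called lower and 41 were not called, against a background of 6.96% of all tested genes higher and 5.59% lower. Because a gene can pass the filter through the temperature at which it is high, these counts describe the tested members alone. Their median log2 fold change was 1.13, against -0.032 over all tested genes, and 67 lay above 0 and 40 below. With no filter, the median over all 141 genes was 0.21. There 53 of them were higher and 12 lower, against 888 and 695 of all 16391 genes. The libraries of the temperatures lay apart in 87 members, with those at 25°C the higher in 58 (25.9% of all tested genes) and the lower in 29 (28.7%).

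The genes called higher had a median log2 fold change of 2.08, between 1.15 and 3.0, and those called lower a median of -2.30, between -1.09 and -3.36. In all, 29 members lay above 2 and 7 below -2 on the log2 scale. Among the 29 is col-148, which was listed at 0 in every library at 15°C. Shares of all tested genes beyond these limits were not computed, so these counts describe the members alone. With each library brought to the same sum of FPKM, the median of all genes moved to 0.15, and 54 members were higher and 9 lower, against 9.33% and 3.25% of all genes. Rescaling to TPM gave the same numbers, against 8.43% and 3.04% of all genes. None of the 66 called members changed sign under another pseudocount, another scaling or a library left out. In all 66 the libraries of the temperatures lay apart, so another pseudocount or a library left out could not change the sign. The scalings moved the median of all genes by little beside the threshold of 1, so kept signs say little about these calls.

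**Figure D1:**
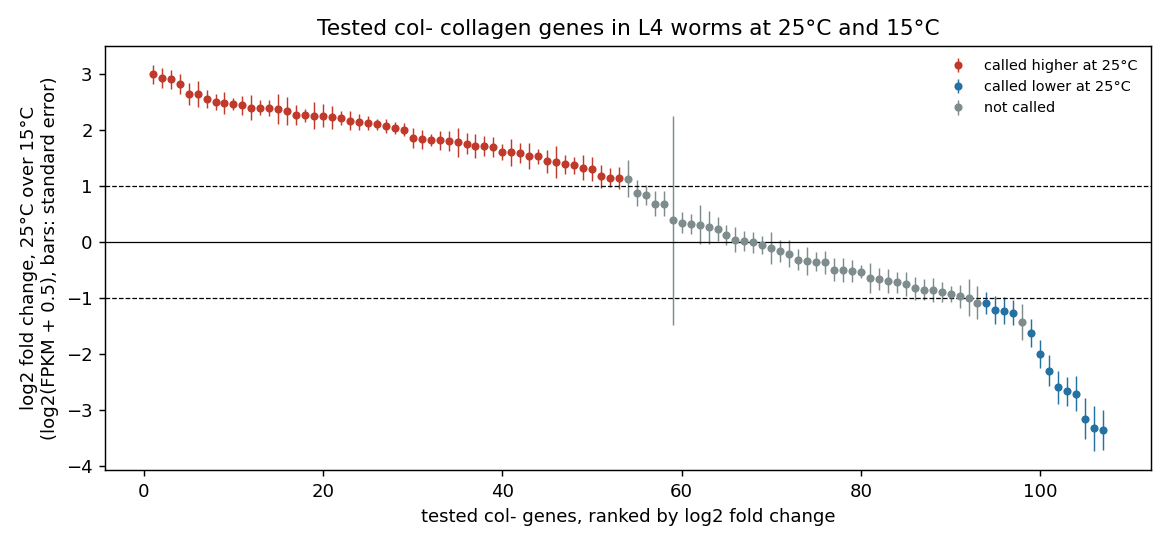
Log2 fold change (25°C over 15°C, on the log2(FPKM + 0.5) scale) of each of the 107 tested col- genes, ranked, with its standard error as a bar and dashed lines at 1 and -1. The 53 genes called higher (red) form the left of the curve and end at 1.15, the 13 called lower (blue) reach down to -3.36, and the single wide bar is that of col-166.

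Among collagens with a known stage of expression, those of the L4 stage rose together. The genes col-38, col-49, col-63 and col-138 are known to be expressed specifically at L4 under the control of the transcription factor LIN-29. All 4 were called higher at 25°C. A rise was not particular to this list, since 53 of the 107 tested members and 6.96% of all tested genes were called higher. The gene col-38 had 344, 359 and 332 FPKM at 25°C, against 78.6, 95.1 and 72.0 FPKM at 15°C, a log2 fold change of 2.08 with a standard error of 0.13 and an adjusted p of 0.00012 by limma. The gene col-49 had 214, 204 and 223 FPKM at 25°C, against 39.9, 49.4 and 43.3 FPKM at 15°C, a log2 fold change of 2.26. In both genes every library at 25°C was far above every library at 15°C, and the libraries of a temperature lay close together. The gene col-63 had 97.1, 85.1 and 86.0 FPKM at 25°C, against 25.4, 25.0 and 24.0 FPKM at 15°C, a log2 fold change of 1.83. The gene col-138 had 282, 323 and 299 FPKM at 25°C, against 71.4, 82.1 and 70.4 FPKM at 15°C, a log2 fold change of 2.01. Summed, the 4 genes gave 937 to 970 FPKM at 25°C and 210 to 252 FPKM at 15°C. All 4 calls held without each library in turn and in the test against a 2-fold change (treat).

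The neighbours col-12 and col-13, which encode closely related collagens made at every molt, also rose. The gene col-13 had 481, 492 and 477 FPKM at 25°C, against 140, 219 and 201 FPKM at 15°C, a log2 fold change of 1.39 with a standard error of 0.17 and an adjusted p of 0.0013 by limma. The gene col-12 had 640, 683 and 663 FPKM at 25°C, against 227, 350 and 330 FPKM at 15°C, a log2 fold change of 1.15. In both, the libraries at 25°C agreed closely and 15°C replicate 1 was the lowest of all. The call of col-12 was lost without 15°C replicate 1, where its log2 fold change was 0.96, and without 25°C replicate 3, where it was 1.15.

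The 2 collagens listed here for the adult stage, col-19 and col-7, were not called, and this short list does not stand for all collagens of the adult cuticle. The gene col-19, a widely used marker of the adult epidermis, had 719, 1297 and 1008 FPKM at 25°C, against 1467, 1601 and 1699 FPKM at 15°C, a log2 fold change of -0.70 with an adjusted p of 0.033 by limma. Its libraries at 25°C were all below those at 15°C, with 25°C replicate 1 the lowest. The gene col-7 had 429, 615 and 602 FPKM at 25°C, against 415, 578 and 512 FPKM at 15°C, so that the temperatures overlapped. Its log2 fold change was 0.12 with a standard error of 0.18 and an adjusted p of 0.62 by limma, and -0.01 without 15°C replicate 1. Of the collagens known from dauer larvae, the resting stage that worms enter under stress, col-2 and col-40 stayed under 0.3 FPKM in every library and were not tested. The dauer collagen col-6 was not analysed here.

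**Figure D2:**
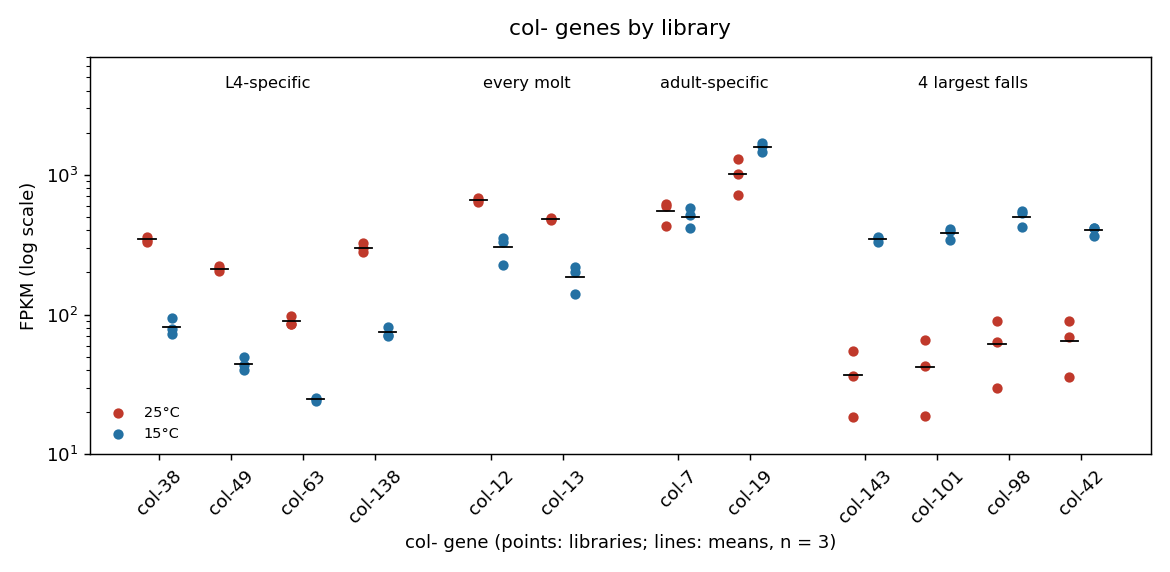
FPKM on a log axis of 12 col- genes, with a point for each library, 25°C (red) left of 15°C (blue), and a line at the mean of each temperature (n = 3). The 4 L4-specific genes and both genes of every molt are higher in every library at 25°C, col-7 overlaps between the temperatures, and the 4 genes with the largest falls are lower in every library at 25°C and spread widely there.

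The largest rise was that of col-156 on chromosome V (WBcel235, 11449219 to 11450357, minus strand). It had 192, 185 and 183 FPKM at 25°C, against 17.9, 24.8 and 27.1 FPKM at 15°C, a log2 fold change of 3.0 with a standard error of 0.16 and an adjusted p of 0.00011 by limma. The libraries at 25°C were nearly alike and all far above those at 15°C. Exons of this gene overlap exons of mig-17, a gene on the other strand for a secreted metalloprotease.

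The gene col-120, studied for its rise in long-lived insulin receptor mutants, had 720, 548 and 595 FPKM at 25°C, against 67.1, 95.4 and 85.7 FPKM at 15°C, a log2 fold change of 2.91. The gene col-91 had 412, 403 and 400 FPKM at 25°C, against 43.5, 79.8 and 76.5 FPKM at 15°C, a log2 fold change of 2.65. The gene col-77 averaged 647 ± 55.3 FPKM (SD) at 25°C, against 116 ± 6.51 FPKM (SD) at 15°C, with n = 3 for each and a log2 fold change of 2.47. These genes are at moderate levels at 15°C and rise well above them at 25°C, with no overlap of the libraries. The other genes among the 10 with the largest rises were col-65 (log2 fold change 2.93), col-152 (2.82), col-130 (2.65), col-88 (2.55), col-60 (2.51) and col-104 (2.48), whose roles within the cuticle are not described here. All 10 stayed called without each library in turn and by treat.

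Most genes called higher were at modest levels at 15°C. Their means had a median of 195 FPKM at 25°C, against 31.1 FPKM at 15°C. In 42 of the 53, 15°C replicate 1 was the lowest library of its temperature, and the median coefficient of variation of the 53 genes was 8.0% at 25°C and 20.8% at 15°C. Of the 53 calls, 43 held without each library in turn. The gene col-148, named after its values were seen, was listed at 0 in every library at 15°C and had 2.29, 1.71 and 2.14 FPKM at 25°C. Since a value of 0 can be a failed estimate, no fold change is given, and the gene fell under the filter without any of the libraries at 25°C.

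In the other direction, a smaller set of collagens fell to a fraction of their 15°C level, most of which were abundant at 15°C. Their means had a median of 146 FPKM at 25°C, against 499.7 FPKM at 15°C. The largest fall was that of col-143 on chromosome V (WBcel235, 6835635 to 6836704, plus strand). It had 18.4, 55.2 and 36.3 FPKM at 25°C, against 350, 330 and 359 FPKM at 15°C, a log2 fold change of -3.36 with a standard error of 0.35 and an adjusted p of 0.00074 by limma. Its libraries at 15°C were nearly alike, while those at 25°C differed among themselves by about as much as their mean. It was the only member called lower by treat.

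The gene col-101 had 18.6, 66.1 and 42.5 FPKM at 25°C, against 406, 342 and 396 FPKM at 15°C, a log2 fold change of -3.33. The gene col-98 had 29.6, 89.8 and 63.7 FPKM at 25°C, against 532, 421 and 546 FPKM at 15°C, a log2 fold change of -3.15. The gene col-42 had 35.9, 90.6 and 68.7 FPKM at 25°C, against 414, 366 and 419 FPKM at 15°C, a log2 fold change of -2.71. In all these genes 25°C replicate 1 was the lowest library and 25°C replicate 2 the highest at that temperature, and every library at 25°C was well below every one at 15°C.

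The gene col-8 was among the most abundant collagens at 15°C, with 183, 374 and 309 FPKM at 25°C, against 1150, 1067 and 1110 FPKM at 15°C, a log2 fold change of -2.0. At the lower end of the scale, col-95 had 2.09, 4.71 and 2.76 FPKM at 25°C, against 21.4, 21.1 and 23.3 FPKM at 15°C, a log2 fold change of -2.67. The genes col-103 (-2.60) and col-142 (-2.30) fell as well. Exons of col-8, col-103, col-142, col-143, col-149 and col-179 overlap exons of another coding gene, and whether their reads were told apart by strand is not given in the sources used here. Of the 13 calls, 8 held without each library in turn, and 5 depended on single libraries. The call of col-119 (log2 fold change -1.62) was lost without replicate 3 of 25°C (-1.66), or without replicate 1 (-1.65) or 3 (-1.52) of 15°C. That of col-179 (-1.26) was lost without replicate 1 (-1.05) or 3 (-1.29) of 25°C, without replicate 1 (-1.24) or 3 (-1.14) of 15°C, and under scaling to equal sums. Those of col-122 (-1.09), col-80 (-1.22) and col-149 (-1.21) were lost without any library except 25°C replicate 2, and under equal sums. Without 25°C replicate 2, 19 members were called lower, 6 of them not called with all libraries, against 826 of all tested genes. Without replicate 3 of either temperature 8 members were, against 343 (25°C) and 397 (15°C) of all tested genes.

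The 13 genes called lower varied together among the libraries at 25°C. In all 13, 25°C replicate 1 was the lowest and 25°C replicate 2 the highest library of that temperature. The same held for 30 of the 41 members not called and for 21 of the 53 called higher. It held for 29.9% of tested genes as a whole and for 60.1% of all genes called lower. Relative to the mean at 15°C, the median of the 13 genes was 0.128, 0.293 and 0.220 in 25°C replicates 1, 2 and 3. For the genes called higher the same medians were 4.2, 4.35 and 4.2. The median coefficient of variation of the 13 genes was 38.6% at 25°C and 8.49% at 15°C.

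Most genes of oocytes and eggshell were lower at 25°C too. Of 8 tested genes of oocytes and eggshell, limma called 5 lower, with a median log2 fold change of -1.24, and they summed to 1010 to 1327 FPKM at 25°C, against 2353 to 2784 FPKM at 15°C. Without 15°C replicate 1 only 2 were called, without replicate 3 of either temperature 3, and treat called 0, while 6 were lower with an unadjusted p under 0.05. The yolk receptor gene rme-2, which acts in oocytes, had 19.1, 44.4 and 31 FPKM at 25°C, against 128, 112 and 158 FPKM at 15°C, a log2 fold change of -2.12, whose call was lost without 15°C replicate 1 (-2.14). As in col-143, replicate 1 was the lowest and replicate 2 the highest library at 25°C. This order held for 6 of the 8 genes, against 60.1% of all genes called lower and 29.9% of all tested genes. Relative to their 15°C mean, the median of the 8 genes was 0.330, 0.493 and 0.453 in 25°C replicates 1, 2 and 3. Of 4 tested yolk protein genes, vit-4 (-1.61) and vit-5 (-1.62) were called lower and the other 2, vit-6 (-0.84) and vit-2 (-0.63), were not called. All 4 were lower with an unadjusted p under 0.05 by limma, with every library at 25°C below every one at 15°C. The list had a median of -1.23, and its sum was 1506 to 1834 FPKM at 25°C and 2637 to 4401 FPKM at 15°C. The yolk genes did not share the pattern among libraries, since replicate 1 was the lowest and replicate 2 the highest at 25°C in 1 of the 4, and their medians relative to the 15°C mean were 0.413, 0.487 and 0.399 in 25°C replicates 1, 2 and 3. The part of these differences in the changes of the collagens was not tested.

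**Figure D3:**
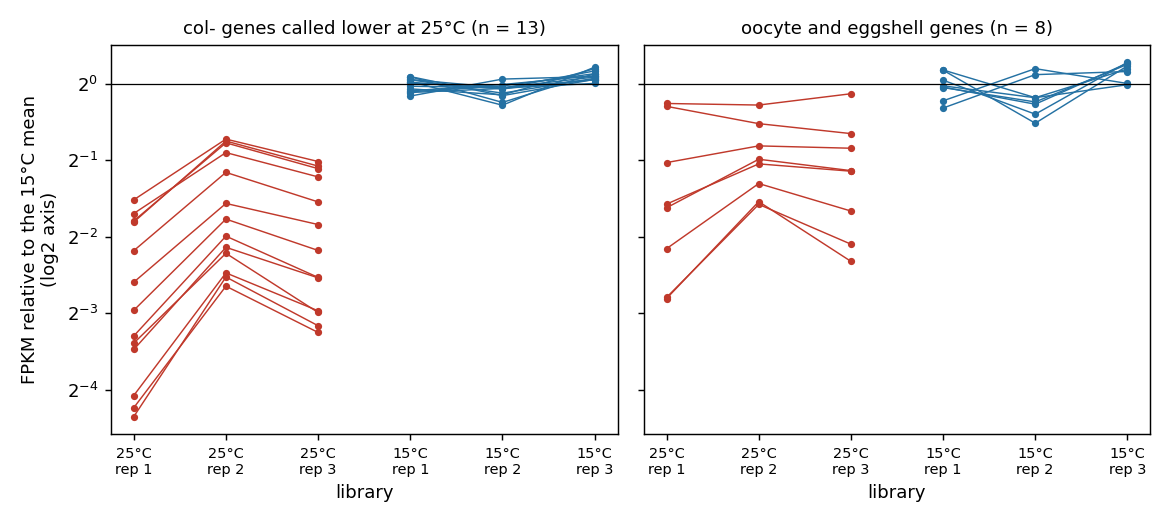
FPKM of each gene relative to its mean at 15°C, on a log2 axis, in the 3 libraries at 25°C (red) and the 3 at 15°C (blue), for the 13 col- genes called lower (left) and the 8 oocyte and eggshell genes (right); lines join the values of a gene and carry no order of replicates. All 13 collagens are lowest in 25°C replicate 1 and highest in 25°C replicate 2 within that temperature, as are 6 of the 8 oocyte genes. The same order holds for 60.1% of all genes called lower.

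Most markers of sperm and of other cell types were not called. Of 12 tested sperm genes, 10 of them for major sperm proteins, 0 were called in either direction by limma or treat, against 1 called lower without 15°C replicate 3. At an unadjusted p under 0.05, 3 were lower, and the median was -0.29. Of 6 tested genes of the intestine, elt-7 (log2 fold change 1.11) was called higher, a call lost without 15°C replicate 1 (0.99) or 25°C replicate 3 (1.08), and the median was 0.073. Of 5 tested muscle genes, 0 were called by limma or treat, and 1 had an unadjusted p under 0.05 and was lower, with a median of -0.23. Of 5 tested neuron genes, 0 were called by limma or treat, and 1 had an unadjusted p under 0.05 and was higher, with a median of -0.093, which was 0.07 under equal sums.

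The collagens with the highest means over both temperatures were mostly lower at 25°C, though few of them were called. Of the 20 members with the highest mean, at least 699 FPKM each, 19 lay below 0 and 4 of these were called lower. At 500 FPKM and above, 5.15% of all tested genes were called lower. The calls of col-80 and col-122 were lost without any library except 25°C replicate 2, and under equal sums. That of col-119 was lost without some single libraries. The 20 members had a median log2 fold change of -0.79, against -0.20 for all tested genes at 500 FPKM and above. The libraries at 25°C were all below those at 15°C in 14 of the 20, against 28.7% of all tested genes. In all 20, 25°C replicate 1 was the lowest and 25°C replicate 2 the highest library at 25°C. The exception in sign was col-133, with 988, 1424 and 1171 FPKM at 25°C, against 778, 965 and 1117 FPKM at 15°C, a log2 fold change of 0.32. A gene can enter this set through its 15°C level. So did col-8, col-80 and col-119, with means of 289, 682 and 666 FPKM at 25°C. The next by mean, col-144 (log2 fold change 1.31) and col-161 (1.86), were called higher, so the picture depends on the cut.

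The most abundant member, col-129, had 1598, 2734 and 2247 FPKM at 25°C, against 2833, 3059 and 3313 FPKM at 15°C, a log2 fold change of -0.52 with an adjusted p of 0.071 by limma. The gene col-140 had 1198, 2115 and 1608 FPKM at 25°C, against 2663, 2841 and 3004 FPKM at 15°C, a log2 fold change of -0.83 with an adjusted p of 0.016 by limma. In both, no library at 25°C reached the lowest one at 15°C. The next 7 by mean level were not called, with log2 fold changes of -0.49 for col-139, -0.36 for col-81, -0.65 for col-92, -0.86 for col-20, -0.85 for col-178, -0.97 for col-181 and -0.49 for col-124. The tenth, col-122, was called lower. Neighbours in this order mostly did not differ beyond the spread between their libraries. The gene col-81, for example, ranged from 1328 to 2275 FPKM at 25°C and col-139 from 1342 to 2321 FPKM.

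In bins of mean level, set after the values were seen, 10 of 20 members between 1 and 10 FPKM, 15 of 24 between 10 and 100 FPKM and 25 of 37 between 100 and 500 FPKM were called higher, against 6.81%, 7.42% and 6.91% of all tested genes in the same bins. Called lower by limma were 0, 1 and 7 members of these bins, against 4.9%, 6.15% and 5.47% of all genes, and in the lowest bin 4 members were lower at an unadjusted p under 0.05. At 500 FPKM and above, 3 of 26 members were called higher and 5 lower, against 3.59% and 5.15% of all genes, and their median was -0.67, against -0.20 for all genes of that level.

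**Figure D4:**
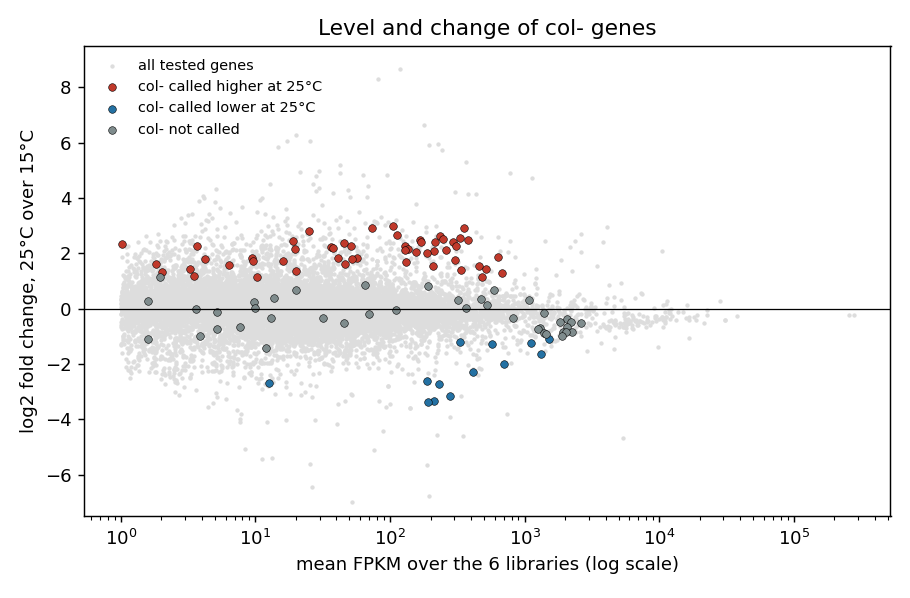
Mean FPKM over the 6 libraries (log axis) against the log2 fold change (25°C over 15°C) of every tested gene, with the 53 col- genes called higher in red, the 13 called lower in blue and the 41 not called in dark grey over all tested genes in light grey. The col- genes above 699 FPKM lie at or below 0 but for col-133, and those called higher lie at lower means.

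The make-up of the collagen transcripts differed more than their sum. The FPKM of all 141 genes gave sums of 33834, 50287 and 42882 at 25°C, against 45147, 49754 and 54671 at 15°C, so that the temperatures overlapped. Genes called higher gave 38.2%, 28.0% and 30.8% of that sum at 25°C, against 6.13%, 7.97% and 7.08% at 15°C. Genes called lower gave 7.04%, 9.33% and 8.62% at 25°C, against 22.8%, 20.05% and 21.1% at 15°C. The 20 most abundant members gave 52.8%, 61.8% and 58.9% at 25°C, against 80.6%, 79.1% and 79.9% at 15°C. The called genes were chosen by this same comparison, and the 20 by a mean over both temperatures, so all these shares are a description.

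Neighbouring collagen genes did not always move together. With a gap of at most 10000 bases as the limit, 22 pairs of neighbours held 39 members, and both genes were tested in 15 pairs. In 1 pair both were called higher (col-13 and col-12, 1995 bases apart on chromosome V) and in 1 both were called lower. In 1 they were called in opposite directions, in 8 only a single gene was called and in 4 neither was. Further pairs shared or differed in sign without both genes being called. The pairs below were named after their values were seen.

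The pair with both genes called lower was col-142 and col-143, which lie 3378 bases apart on the plus strand of chromosome V. Next to it, col-141 had 3.64, 7.37 and 8.06 FPKM at 25°C, against 12.2, 19.2 and 21.02 FPKM at 15°C, a log2 fold change of -1.43 that was not called, with an adjusted p of 0.013 by limma. Its libraries were apart, and its level was far below those of its neighbours.

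The pair called in opposite directions was col-149 and col-150, 693 bases apart on the minus strand of chromosome V. The gene col-150 had 322, 297 and 315 FPKM at 25°C, against 90.3, 121 and 112 FPKM at 15°C, a log2 fold change of 1.54. The gene col-149 had 131, 273 and 217 FPKM at 25°C, against 426, 449 and 502 FPKM at 15°C, a log2 fold change of -1.21, whose call was lost without any library except 25°C replicate 2 (-0.91 to -1.28) and whose exons overlap those of another coding gene. In every library at 25°C col-150 was above col-149, and in every library at 15°C it was below. On chromosome II, col-20 (-0.86, not called) lies between col-17 (1.38) and col-73 (2.11), both called higher, on the minus strand, at gaps of 2093 and 1306 bases. The other wide difference was that between col-95 (-2.67) and col-96 (-0.21, not called), 560 bases apart on chromosome III.

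**Figure D5:**
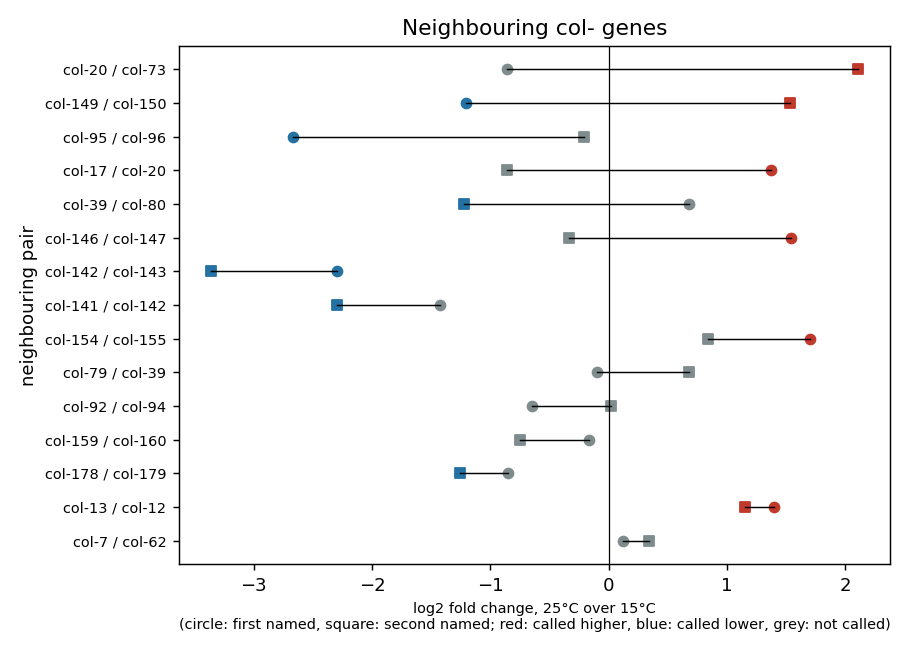
Log2 fold change (25°C over 15°C) of both genes of each of the 15 pairs of neighbouring tested col- genes, joined by a line, with red for genes called higher, blue for genes called lower and grey for genes not called. The pairs are sorted by the difference within the pair, from col-7 and col-62 at the bottom to col-20 and col-73 at the top.

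Called genes were found on every chromosome. On chromosome I, 9 of 12 tested members were higher. On the X chromosome 4 of 16 were higher and 1 was lower. Chromosomes II, III, IV and V had 8 of 16, 5 of 11, 14 of 27 and 12 of 24 higher, and lower were 1 on II, 3 on III, 4 on IV and 4 on V. Shares of all tested genes by chromosome were not computed, so these counts describe the members alone and rank no chromosome. The gene col-182 (log2 fold change 1.18, a call lost without any library except 15°C replicate 3), which another annotation of the same genome lists as a pseudogene, was not matched to a chromosome here.

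Of the 41 tested members that were not called, 27 lay below 0 and 14 above. Of these, 4 passed the adjusted p but not the fold (col-106 at -0.92, col-181 at -0.97, col-184 at -0.89 and col-155 at 0.84) and 3 passed the fold but not the adjusted p (col-141, col-135 at -1.08 and col-172 at 1.13). The least reproducible member was col-166, with 0.0325, 16.6 and 31.9 FPKM at 25°C, against 0.00245, 24.3 and 10.1 FPKM at 15°C, a log2 fold change of 0.39 with a standard error of 1.87. At each temperature replicate 1 was near 0 and the others were not, so that no change could be detected. It lies on the X chromosome, as do col-167 and col-168, which have the same exonic length of 906 bases, and whether these genes share sequence or reads was not analysed here. The 34 members under the filter had means of at most 0.934 FPKM, and 21 of them were listed at 0 in at least a single library. The transmembrane collagen col-99 had 0.529, 0.968 and 0.583 FPKM at 25°C, against 1.07, 0.940 and 1.52 FPKM at 15°C, and overlapped between the temperatures.

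Other collagens of the cuticle, known by the body shape or surface of their mutants, moved in both directions, and more often upward. Of 18 tested genes of this list, 8 were called higher and 1 lower, with a median log2 fold change of 0.77. The test against a 2-fold change called 2 higher, and 10 were higher and 4 lower with an unadjusted p under 0.05. The gene dpy-5 had 260, 297 and 250 FPKM at 25°C, against 58.3, 69.7 and 55.5 FPKM at 15°C, a log2 fold change of 2.13, with every library at 25°C above those at 15°C. The genes dpy-13 (2.08), dpy-4 (2.07), bli-6 (1.70), ram-2 (1.67), rol-6 (1.21), sqt-1 (1.09) and sqt-3 (1.05) rose as well. The call of rol-6 was lost without 25°C replicate 3 (1.23), and that of sqt-1 without any library at 25°C (1.05 to 1.14) or without 15°C replicate 1 (0.96). The gene dpy-9, whose product belongs to the furrow collagens, fell with a log2 fold change of -1.42, a call that was lost without any library except 25°C replicate 2 (-1.28 to -1.50). Another furrow collagen gene, dpy-10, had a log2 fold change of -1.43 and was not called, with an adjusted p of 0.018 by limma. Of the 3 basement membrane collagen genes, which are not cuticle genes, 0 were called by limma or treat, and 1 had an unadjusted p under 0.05 and was lower.

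Of 13 tested genes for the processing and crosslinking of collagen, limma called 3 higher and 0 lower and treat called 0, with a median of 0.35. At an unadjusted p under 0.05, 7 were higher and 1 was lower. The gene dpy-18, for a subunit of the prolyl 4-hydroxylase that stabilizes the triple helix, had 37.4, 43.3 and 43.1 FPKM at 25°C, against 16.5, 18.1 and 20.8 FPKM at 15°C, a log2 fold change of 1.14. The gene mlt-7, for a peroxidase of cuticle crosslinking, had 50.5, 55.3 and 48.1 FPKM at 25°C, against 10.5, 10.3 and 19.4 FPKM at 15°C, a log2 fold change of 1.96. The gene bli-5, for a Kunitz-type protease inhibitor, rose with a log2 fold change of 2.26. Other hydroxylase genes of the list were not called. The gene phy-2 had 33.6, 30.04 and 31.2 FPKM at 25°C, against 31.1, 28.4 and 30.2 FPKM at 15°C, and overlapped between the temperatures. The gene phy-3 had 8.14, 10.8 and 9.73 FPKM at 25°C, against 12.1, 13.3 and 11.6 FPKM at 15°C, with every library at 25°C below those at 15°C and a log2 fold change of -0.36. The gene pdi-2, for the partner subunit of the enzyme, had 501, 559 and 493 FPKM at 25°C, against 359, 411 and 452 FPKM at 15°C, with every library at 25°C above those at 15°C and a log2 fold change of 0.35.

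Of 12 tested genes for transcription factors and signals that act on the cuticle, 0 were called by limma or treat, and 4 had an unadjusted p under 0.05, 1 of them higher and 3 lower, with a median of -0.029, which was 0.14 under equal sums. The gene lin-29, for the factor that drives the L4 collagens, had 7.32, 6.65 and 6.22 FPKM at 25°C, against 7.70, 6.07 and 7.89 FPKM at 15°C, with overlap and a log2 fold change of -0.09 that was 0.08 under equal sums. The gene nhr-23, for a nuclear receptor needed at molts, had 11.6, 15.3 and 12.5 FPKM at 25°C, against 24.5, 16.1 and 25.2 FPKM at 15°C, a log2 fold change of -0.70 with an adjusted p of 0.033 by limma. Its libraries at 25°C were all below those at 15°C, by a narrow margin.

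Of 9 tested genes of molting, 2 were called higher and 1 lower, with a median of 0.19. At an unadjusted p under 0.05, 3 were higher and 3 lower. The gene nas-36, for an astacin protease needed to shed the old cuticle, had 45.9, 26.1 and 32.4 FPKM at 25°C, against 6.10, 4.98 and 4.71 FPKM at 15°C, a log2 fold change of 2.58. The gene mlt-8 rose with 1.19, and noah-2 fell with -1.23, at means of only 0.74 FPKM at 25°C and 2.41 FPKM at 15°C. The call of noah-2 was lost without each library in turn (-1.09 to -1.35), at pseudocounts of 0.1 (-1.58) and 1 (-0.97) and under equal sums (-1.10). The part of molting and stage in the changes of the col- genes was not tested.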

How the data were processed

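Total RNA of whole L4 worms was sequenced from stranded mRNA libraries. Reads were mapped by the authors with TopHat2 2.0.6 on WBcel235, and the deposited FPKM come from the Cufflinks tools, 1 value per gene and library. Whether the estimates used strand is not given in the sources used here, and 34 col- genes share exonic bases with another coding gene. Low values show no steps of whole reads, so depth is unknown and precision rests on the spread between libraries. Libraries were grouped by the temperature in the sample records.

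Values were used as deposited on the log2(FPKM + 0.5) scale and fitted by limma 3.58.1 (R 4.3.3) with an intensity trend and no covariate. Tests were two-sided and called at an absolute log2 fold change above 1 and an adjusted p under 0.01. The fit was tested on simulated data. Coordinates, of 140 of the 141 members, are from the Ensembl annotation of WBcel235. The pseudogene listing of col-182 is from RefSeq. The alternatives tried were no filter, a filter at 5 FPKM, pseudocounts of 0.1 and 1, median-ratio scaling, TPM, equal sums, no trend, treat at 2-fold, a replicate block, an adjusted p under 0.05 and each library left out. Tables were made with pandas 2.3.3 in Python 3.11.15.

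The members, gene lists and rules were chosen with earlier results of these data known. Genes were named where they were among the 10 called with the largest changes in each direction, among the 10 with the highest mean, or in a stage list, and, outside the family, where they led a list or have a role that is explained. Protein and promoter sequences, near-identical copies, and 16 other annotated col- genes were not analysed here, nor were the listed genes mlt-10, vit-3, unc-54 and unc-17.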

Additional observations from a re-analysis of the deposited data

How the results depend on the processing

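The sizes of both sets of collagens depended on the test and on single libraries. Their directions held under all 17 alternatives, most of which could not change them. The filters, no trend, treat, the replicate block and the adjusted p leave each fold change as it was. Direction could therefore change only under the other alternatives. In the 66 called members, whose libraries lay apart, another pseudocount or a library left out could not change it either. Testing against a 2-fold change (treat) left 24 members called higher and 1 lower, against 137 and 26 of all 12996 tested genes. Leaving out a library gave 43 to 52 members higher and 8 to 19 lower. The counts over all tested genes were then 561 to 855 higher and 320 to 826 lower. The 8 came where replicate 3 of either temperature was left out, and the 19 where 25°C replicate 2 was. Without 25°C replicate 2, 826 of all tested genes were lower, against 726 with all libraries. The other alternatives, apart from the replicate block, gave 46 to 54 members higher and 9 to 15 lower. Over all tested genes they gave 731 to 1212 higher and 395 to 977 lower. The median log2 fold change of the tested members, 1.13, was 0.91 with a pseudocount of 1, 0.21 with no filter, 0.84 with a filter at 5 FPKM, 1.03 after rescaling to TPM, 1.28 with equal sums and between 0.86 and 1.27 without a library. The only change of sign among the 38 named members tested was that of col-7, at 0.12, which stood at -0.0071 with 15°C replicate 1 left out, at 0.29 with 25°C replicate 1 left out and at 0.31 under equal sums or TPM. Of 646 alternative fits of named members, including those that cannot change a direction, 609 kept direction and call, 32 lost the call and 4 gained it. The cause of these shifts was not tested. Since depth is unknown, no floor can be given for members listed at 0.

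The replicate numbers do not pair the libraries by any record. Over all tested genes, the deviations of same-numbered libraries correlated at -0.035, -0.104 and -0.05, and over the col- genes alone at 0.56, 0.115 and 0.578, where 25°C replicate 2 correlated better with 15°C replicate 3 (0.319) than with its own number. With the number as a replicate block, 47 members were called higher and 11 lower, against 597 and 406 of all tested genes. The calls of col-80, col-149 and col-179 were among those lost.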
